A study of Mus musculus with 6 samples.

Results

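Wnt genes of the mouse uterus were followed after a single dose of progesterone. The members were taken by name from the gene symbols of the array: every Wnt, frizzled (Fzd), secreted frizzled-related protein (Sfrp), Dickkopf (Dkk) and R-spondin (Rspo) gene, with Lgr4, Lgr5, Lgr6, Lrp5, Lrp6, Wif1, Frzb, Axin2, Lef1, Nkd1 and Nkd2. This gave 53 of the 18193 genes tested, each read on 1 probe set, the one with the highest mean over the 6 arrays. They comprised 23 ligands (19 Wnt genes and 4 R-spondins), 15 receptors (10 frizzleds, 3 Lgr genes and 2 Lrp genes), 10 antagonists and 4 target or feedback genes. The remaining member, Fzd10os, is a non-coding transcript next to Fzd10 that the name rule took in, and it is no receptor. Tcf7 was not analysed here.

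Wnt proteins are secreted, lipid-modified ligands that bind frizzled receptors together with the coreceptors Lrp5 or Lrp6 and stabilise beta-catenin, which then acts with TCF and LEF factors on target genes such as Axin2. R-spondins bind Lgr receptors and raise the amount of frizzled at the cell surface, whereas Sfrp, Frzb and Wif1 proteins bind the ligands and most Dickkopf proteins block the coreceptors. In the uterus Wnt7a is made by the epithelium and is needed for the formation of glands, and Wnt4 and Wnt5a act in the stroma.

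The treated group had 3 arrays of whole uterus taken 6 h after an injection of 1 mg progesterone in 100 µl sesame oil, and the control group had 3 arrays taken 6 h after sesame oil alone. All animals were female mice of a mixed background, 8 weeks old, whose ovaries had been removed at 6 weeks of age. All carried the floxed Gata2 allele (GATA2 f/f), and no recombinase is named in the labels, so the controls share the allele. The study's design text describes RNA pooled from 3 mice. The labels do not say that the arrays held independent pools, and the p-values then measure only the spread between these arrays, which may be technical. The comparison asks which transcripts respond to progesterone early. Values are log2 expression levels from single-colour Affymetrix arrays. Levels of different probe sets served to choose probe sets and members, to sum markers and to mark low signal. They were not read as relative amounts of RNA of different genes.

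Median values per array were 5.51 to 5.53. The bacterial TrpnX controls, which match no mouse transcript, reached at most 3.34. Progesterone arrays had median levels of 9.94 to 10.43 over 13 epithelial markers, 10.73 to 11.15 over 10 stromal markers and 11.13 to 11.27 over 8 smooth muscle markers. The oil arrays had 10.15 to 10.58, 10.72 to 11.07 and 11.11 to 11.22 over the same lists, so the main tissues of the uterus were present in both groups. Oil replicate 3 stood apart in its liver transcripts, whose summed level was 9.71 (log2) there, against 6.35 to 6.68 on the progesterone arrays and 6.24 to 6.38 on the other oil arrays. The summed neutrophil markers were 7.98, 13.04 and 13.92 on progesterone replicates 1 to 3 and 8.22, 8.52 and 13.45 on oil replicates 1 to 3. None of the liver and neutrophil markers passed the test in limma, and 0 of them had an unadjusted p under 0.05 (with the replicate number as a block, 1 neutrophil marker, Csf3r, was higher). The replicate number is treated below as a possible block.

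Markers of fat and vessels had lower means with progesterone. All 5 adipocyte markers had a lower mean (median log2 difference -0.64), with 4 at an unadjusted p under 0.05 in limma. None of them passed after adjustment, and with the replicate block 4 were lower. The summed adipocyte level was 8.41, 9.31 and 7.48 on the progesterone arrays and 10.03, 10.22 and 9.21 on the oil arrays (log2), so that the sums overlapped by 1 array. The largest differences were those of Adipoq (log2 difference -1.94, adjusted p = 0.113) and Fabp4 (-1.74, adjusted p = 0.114). All 7 endothelial markers had a lower mean (median -0.32), 3 of them at an unadjusted p under 0.05. None passed after adjustment, and with the replicate block 2 were lower. The summed endothelial level was 10.88, 11.14 and 11.05 with progesterone and 11.02, 11.44 and 11.46 with oil (log2), which also overlapped. Of the 10 stromal markers 4 were higher, the transcription factor genes Hand2, Hoxa10, Hoxa11 and Twist2, and 1, Lum, was lower. Vim, Dcn, Pdgfra, Col1a1 and Col3a1 did not pass. Of the 6 gland markers 2, Ttr and Wfdc3, were higher. Over all genes 5.92% were higher and 5.83% lower. Whether the marker changes reflect cell numbers was not tested. The part of fat, vessels and these other cells in the falls of the members was not tested.

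Most of the members did not pass the threshold, and of those that did more fell than rose. Of the 53, 2 rose and 7 fell at a Benjamini-Hochberg adjusted p under 0.05 in limma, with the adjustment over all genes. Over all 18193 genes 5.92% were higher and 5.83% lower, or 11.7% in either direction, so the 3.77% of members that rose lie below that share and the 13.2% that fell lie above it. Without Fzd10os, 2 of 52 members rose (3.85%) and 6 fell (11.5%). The median log2 change of the members was -0.02, the same as over all genes (-0.02). The falls were those of the ligand Wnt7a, the ligand Wnt5b, the R-spondins Rspo3 and Rspo1, the receptors Lgr5 and Fzd10 and the transcript Fzd10os. The rises were those of the receptors Fzd1 and Fzd6. No member of the antagonist or the target class passed in this fit. With the replicate number as a block 2 members were higher and 11 were lower, where 16.1% of all genes passed in either direction. The share of all genes that were lower with the block was not counted, so the 11 cannot be set against it. Among the 11 were the antagonists Wif1 and Dkk2 and the feedback gene Axin2. Without 1 array the count of lower members was between 4 and 7, at 4 without oil replicate 1, 2 or 3 or progesterone replicate 3. The count of higher members was between 1 and 2, at 1 without oil replicate 1, 2 or 3 or progesterone replicate 2. For these fits the share of all genes was not counted.

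**Figure D1:**
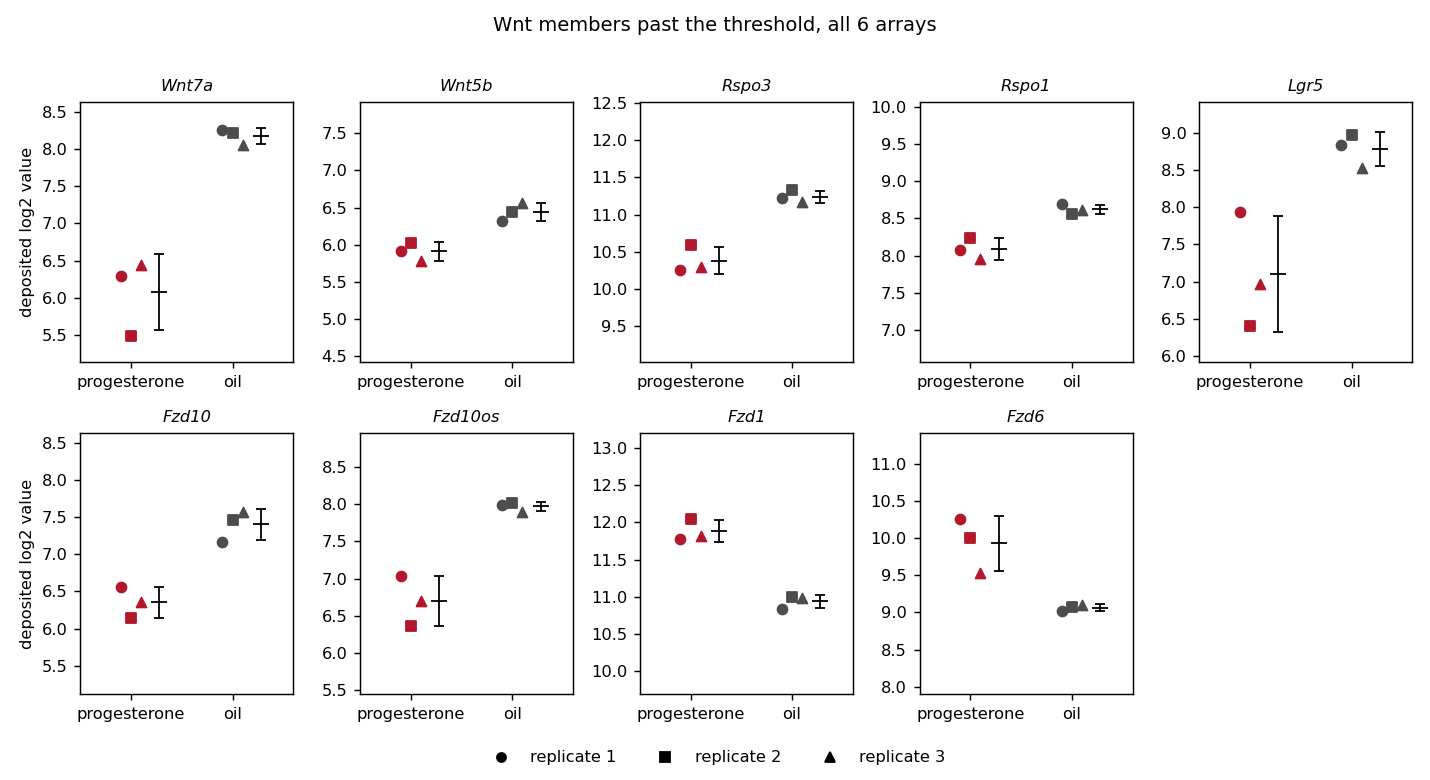
Deposited log2 values of the 9 Wnt members past the threshold, progesterone arrays (red) to the left of oil arrays (grey), with the mean and SD of each group (n = 3) beside the points. Every panel spans the same log2 range, and in all 9 the 3 progesterone arrays lie to one side of the 3 oil arrays.

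Among the ligands, Wnt7a fell furthest. It was at 6.29, 5.49 and 6.44 on the progesterone arrays, against 8.25, 8.21 and 8.05 on the oil arrays. All 3 progesterone arrays thus lay well below the oil arrays, and the progesterone arrays were the more variable. The group means were 6.07 ± 0.511 with progesterone and 8.17 ± 0.106 with oil (log2, SD, n = 3 each), a log2 change of -2.10 ± 0.238 (SE), or 4.28-fold lower (limma adjusted p = 0.00407). The call held in all 6 fits without 1 array, with log2 changes between -2.28 and -1.81. In whole tissue, fewer cells of a type and less RNA per cell cannot be told apart. Of the 13 measured epithelial markers 1 was higher, 0 were lower and 12 did not pass in limma (6 had an unadjusted p under 0.05, and the replicate block gave 2 higher and 1 lower). Their summed level was 14.48, 13.96 and 14.47 on the progesterone arrays and 14.27, 14.27 and 14.41 on the oil arrays (log2), so the sums overlapped. Krt18, an epithelial keratin, was 1.69-fold lower without passing (adjusted p = 0.0589), and the tight junction gene Cldn3 rose 2.22-fold (adjusted p = 0.00624).

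Of the 4 R-spondins, Rspo3 and Rspo1 fell. Rspo3, a secreted amplifier of Wnt signalling, was at 10.26, 10.59 and 10.29 with progesterone, against 11.22, 11.33 and 11.17 with oil. The arrays of the groups lay apart, and the log2 change of -0.86 ± 0.117 (SE) was 1.82-fold (limma adjusted p = 0.00698). This call held in all 6 fits without 1 array. Rspo1, which acts on the same receptors, was at 8.07, 8.24 and 7.95 with progesterone and 8.69, 8.56 and 8.61 with oil. It fell by 0.53 on the log2 scale (SE 0.105, 1.45-fold, limma adjusted p = 0.0209). Leaving out progesterone replicate 2 kept this call, and leaving out any other array ended it, with an adjusted p of up to 0.0819. Rspo2 had means of 4.52 with progesterone and 4.35 with oil (adjusted p = 0.498), and Rspo4 was at 3.85 in both groups.

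Wnt5b, a ligand known mainly for signalling that does not use beta-catenin, was at 5.92, 6.03 and 5.78 with progesterone and 6.32, 6.44 and 6.56 with oil. The groups did not overlap, and the log2 change was -0.53 ± 0.109 (SE), or 1.44-fold lower (limma adjusted p = 0.0241). As with Rspo1, the change was under 1.5-fold, and leaving out any array but progesterone replicate 2 ended the call (adjusted p up to 0.0904). Wnt16 and Wnt2 also had all progesterone arrays below all oil arrays, but neither passed. Wnt16 was at 6.28, 5.56 and 5.87 with progesterone and 6.71, 6.97 and 6.30 with oil, a log2 change of -0.76 (95% confidence interval -1.29 to -0.22, limma adjusted p = 0.0788), and it passed without progesterone replicate 1 (log2 change -0.95, adjusted p = 0.0456) but in none of the other 5 fits without 1 array (adjusted p up to 0.233). Wnt2 was at 4.44, 4.32 and 4.47 with progesterone and 4.64, 5.50 and 4.96 with oil (log2 change -0.62, adjusted p = 0.104), and its difference was -0.39 without oil replicate 2.

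Wnt5a, Wnt4 and the remaining Wnt ligands did not pass. Wnt5a was at 10.19, 9.83 and 9.79 with progesterone, against 9.73, 9.65 and 9.45 with oil. Its progesterone arrays lay above the oil arrays, with a log2 difference of 0.33 and an unadjusted p of 0.0493 that became 0.19 after adjustment over all genes (limma). The difference was 0.20 without progesterone replicate 1. It was the only one of the 23 ligands whose progesterone arrays all lay above its oil arrays, and 6 ligands had them all below. Over all genes 14.5% had their progesterone arrays all above and 15.9% all below. Wnt4, a ligand of the stroma in decidualization, was at 9.91, 9.84 and 9.87 with progesterone and 9.85, 9.55 and 9.84 with oil. On this probe set the 95% confidence interval of the log2 difference ran from -0.13 to 0.38. The second probe set of Wnt4 had means of 8.99 with progesterone and 8.73 with oil. Its log2 difference was larger, at 0.26 (SE 0.151, limma adjusted p = 0.382 when every probe set was tested on its own). A rise of more than 0.38 thus lies outside the interval of the first probe set only. Wnt9a, Wnt6, Wnt11, Wnt7b and Wnt3a had log2 differences between -0.07 and 0.09, with overlapping arrays. For Wnt7b the interval was wide, from -0.57 to 0.76. Wnt9b, Wnt10b, Wnt10a, Wnt2b, Wnt8a, Wnt8b, Wnt1 and Wnt3 had mean levels below 5, with log2 differences between -0.04 and 0.14. Wnt3 did not exceed 3.34, the highest value of the TrpnX controls, on any array. Of 15 members with a mean level below 5, 0 passed in limma (1, Wnt2, had an unadjusted p under 0.05), and near background a true difference would be measured as smaller than it is.

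Of the ligands as a class, 0 were higher, 4 were lower (17.4%) and 19 did not pass in limma. Over all genes 5.92% were higher and 5.83% lower. The median log2 change of the ligands was -0.02, the same as over all genes. An unadjusted p under 0.05 was seen in 7 of the 23, where 26% of all genes had one.

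**Figure D2:**
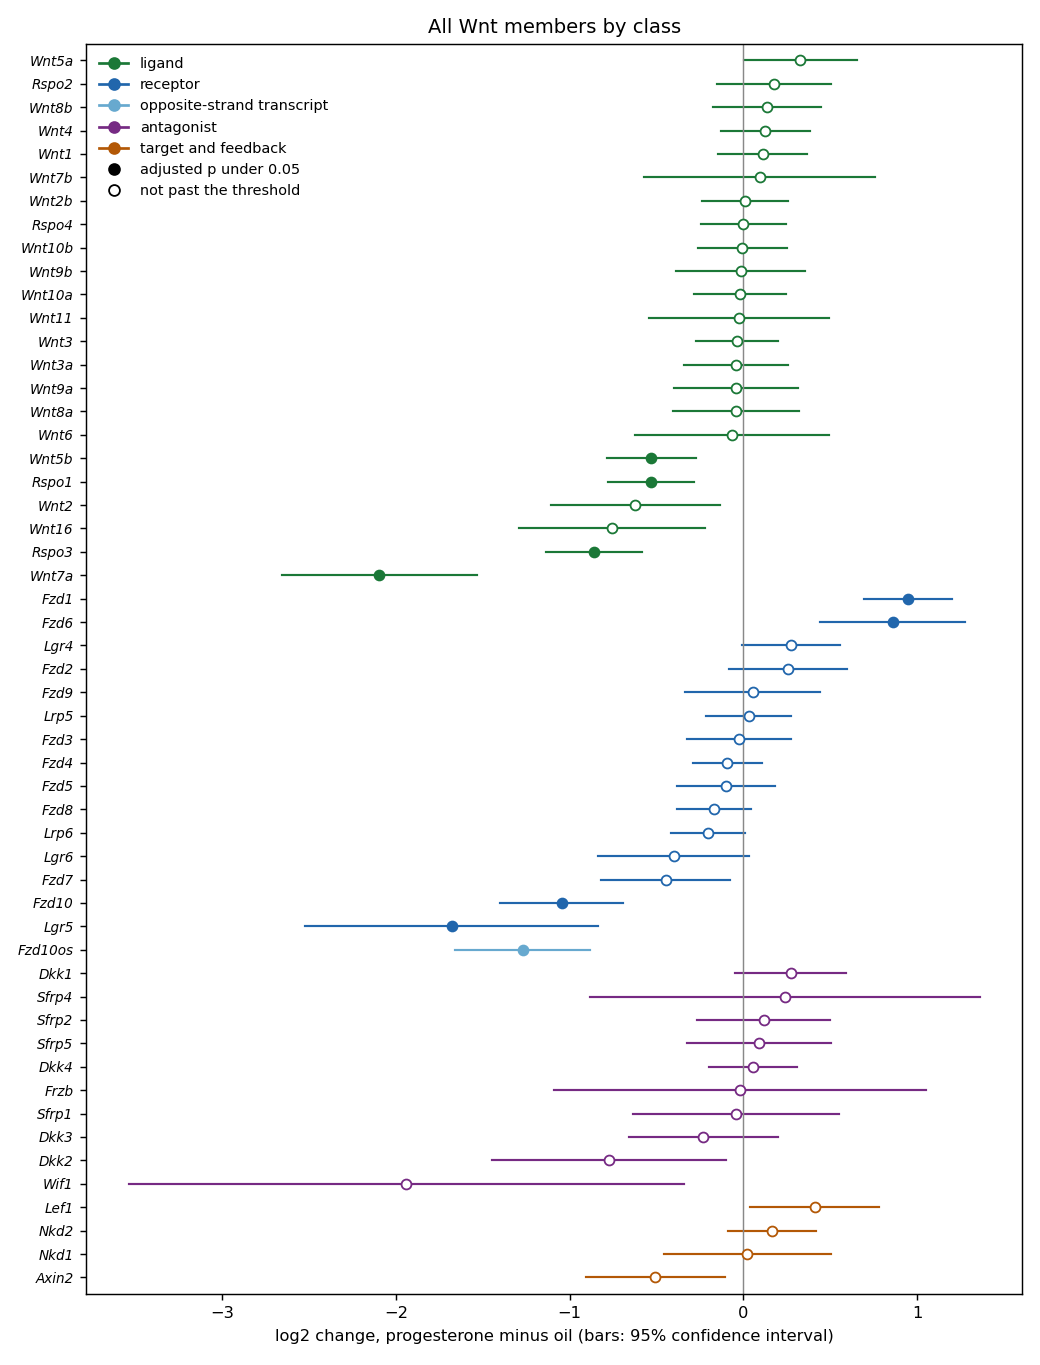
Log2 change (progesterone minus oil) of all 53 members with its 95% confidence interval from limma, ordered by class and size, with filled points for the 9 members past the threshold. Changes of the ligands run from -2.10 to 0.33 and those of the receptors from -1.68 to 0.95, while all antagonists and target genes have open points.

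The receptors moved in both directions. Fzd1, which can signal through beta-catenin, was at 11.78, 12.05 and 11.82 on the progesterone arrays, against 10.84, 10.99 and 10.98 on the oil arrays. The groups lay far apart for their spread, and the log2 change was 0.95 ± 0.107 (SE), or 1.93-fold higher (limma adjusted p = 0.00399). The call held in all 6 fits without 1 array. Fzd6, a frizzled known for planar polarity in mouse skin and hair, was at 10.25, 10.00 and 9.53 with progesterone and 9.02, 9.08 and 9.10 with oil. It rose by 0.86 on the log2 scale (SE 0.177, 1.82-fold, limma adjusted p = 0.0243). Its oil arrays were nearly equal and its progesterone arrays spread over 0.366 (SD, n = 3), and the call ended when progesterone replicate 2 or any 1 of the oil arrays was left out (adjusted p up to 0.0899).

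Lgr5, an R-spondin receptor and a marker of epithelial stem cells in the mouse intestine, fell to 7.94, 6.40 and 6.96 on the progesterone arrays, against 8.84, 8.97 and 8.53 on the oil arrays. The progesterone arrays were lower in each case and spread widely, with an SD of 0.779 beside 0.226 for oil (n = 3 each). The log2 change was -1.68 ± 0.359 (SE), or 3.20-fold lower (limma adjusted p = 0.0275). Leaving out any array but progesterone replicate 1 ended the call (adjusted p up to 0.107), as did trended and robust moderation (adjusted p = 0.0546). The related receptor Lgr4 was at 10.04, 9.72 and 9.70 with progesterone and 9.56, 9.62 and 9.46 with oil. Its progesterone arrays lay above the oil arrays by 0.27 on the log2 scale without passing (95% confidence interval -0.01 to 0.55, limma adjusted p = 0.203), and by 0.16 without progesterone replicate 1. Lgr6 had means of 6.02 with progesterone and 6.42 with oil, and its arrays overlapped (adjusted p = 0.229).

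Fzd10, another frizzled, was at 6.56, 6.14 and 6.36 with progesterone, against 7.17, 7.46 and 7.57 with oil, a log2 change of -1.05 ± 0.15 (SE), or 2.07-fold lower (limma adjusted p = 0.00784). Its non-coding neighbour Fzd10os was at 7.03, 6.37 and 6.70 with progesterone, against 7.99, 8.02 and 7.90 with oil, a log2 change of -1.27 ± 0.165 (SE), or 2.41-fold lower (adjusted p = 0.00623). Both transcripts fell, and in both progesterone replicate 2 was the lowest and progesterone replicate 1 the highest of the treated arrays. This order is not particular to the pair. Lgr5 had it too (7.94, 6.40 and 6.96), as did the summed epithelial markers (14.48, 13.96 and 14.47 on progesterone replicates 1 to 3). Fzd10 and Fzd10os do not overlap in the RefSeq annotation of GRCm38.p6, and no gene lies between them. The calls of Fzd10 and Fzd10os held in all 6 fits without 1 array.

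The other receptors did not pass. Fzd7, a frizzled of progenitor cells, was at 9.15, 9.58 and 9.17 with progesterone and 9.78, 9.93 and 9.53 with oil, so that the groups overlapped by 1 array (log2 change -0.45, limma adjusted p = 0.121, and 0.0342 with the replicate block). The other probe set of Fzd7 showed no fall, with means of 5.21 with progesterone and 5.17 with oil (limma adjusted p = 0.921). Averaging the probe sets gave a log2 change of -0.20 (limma adjusted p = 0.368 without the block). Fzd2 was at 10.90, 10.67 and 10.56 with progesterone and 10.61, 10.55 and 10.20 with oil (log2 difference 0.26, adjusted p = 0.331). Lrp6, Fzd4 and Fzd8 had their progesterone arrays below their oil arrays, by 0.20, 0.09 and 0.17 on the log2 scale as differences of the means, with adjusted p between 0.209 and 0.566. Fzd3, Fzd5, Fzd9 and the coreceptor Lrp5 had log2 differences between -0.10 and 0.05. In all, 2 receptors were higher and 2 were lower (13.3% each), and 11 did not pass, where 5.92% of all genes were higher and 5.83% lower. The median log2 change of the receptors was -0.09.

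Sequence before the start site is shown for 3 members past the threshold, the ligand and the receptor with the largest fall among those with a promoter in the RefSeq table used (GRCm38.p6) and the receptor with the larger rise. Each run holds the 250 bases before the start, 5′ to 3′ on the gene's strand, in lower case, with matches to the motifs searched in capitals.
Wnt7a promoter, chr6:91411354-91411603, - strand: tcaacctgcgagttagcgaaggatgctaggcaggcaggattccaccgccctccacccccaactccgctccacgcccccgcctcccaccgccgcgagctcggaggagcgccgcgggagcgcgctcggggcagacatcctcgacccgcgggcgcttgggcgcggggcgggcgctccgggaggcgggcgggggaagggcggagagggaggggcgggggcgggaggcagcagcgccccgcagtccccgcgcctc
Fzd10 promoter, chr5:128600856-128601105, + strand: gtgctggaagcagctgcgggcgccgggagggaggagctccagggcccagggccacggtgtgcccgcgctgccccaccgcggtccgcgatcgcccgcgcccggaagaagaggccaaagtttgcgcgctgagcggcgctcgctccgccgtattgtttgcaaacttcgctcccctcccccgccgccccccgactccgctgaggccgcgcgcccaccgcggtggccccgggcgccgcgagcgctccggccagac
Fzd1 promoter, chr5:4758217-4758466, - strand: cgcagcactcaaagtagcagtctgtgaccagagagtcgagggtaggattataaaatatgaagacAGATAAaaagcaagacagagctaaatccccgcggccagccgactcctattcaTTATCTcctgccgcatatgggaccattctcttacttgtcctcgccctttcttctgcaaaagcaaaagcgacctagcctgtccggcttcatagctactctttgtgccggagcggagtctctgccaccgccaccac
The runs of Wnt7a, Fzd10 and Fzd1 had 77.6%, 76.4% and 51.2% G and C. This content was computed for the runs shown only, and a link with the direction of change was not tested. The motifs searched on both strands were the full hormone response element of the type that the progesterone receptor binds (an inverted repeat with a spacer), its hexamer AGAACA, the TCF and LEF motif CTTTGAT, and the GATA factor motif AGATAA. The hexamer can overlap the full element. Fzd1 had AGATAA at 2 places, on opposite strands, and the Wnt7a and Fzd10 runs had no match to any of the 4. The table held 41 promoter windows of 300 bases, 250 before and 50 after the start, for 35 of the 53 members, 5 of them past the threshold. The full element was in 0 of these 41 windows, against 0.475% of all 32851 windows. AGAACA was in 7 of the 41, against 19% of all windows. CTTTGAT was in 2 and AGATAA in 4, against 3.73% and 11.2% of all windows. A match is a run of letters and not a measured binding site.

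Several genes were read by more than 1 probe set, 34 of the 53 members in all. Of their 52 other probe sets 4 passed when every probe set was tested on its own (limma, adjusted over all probe sets with 1 gene symbol). The share of all probe sets that passed in that fit was not counted. The second probe set of Rspo3 had means of 4.77 with progesterone and 5.25 with oil (log2 change -0.48, adjusted p = 0.0216). That of Fzd1 had 5.64 and 5.02 (0.62, adjusted p = 0.00871), and that of Fzd10os had 4.28 and 5.15 (-0.87, adjusted p = 0.0177). The remaining one was that of Lef1 (0.55, adjusted p = 0.0342), a gene that did not pass on the probe set used. The second probe set of Wnt5b changed by -0.49 without passing (adjusted p = 0.0977), and those of Fzd6 differed by 0.46 and 0.26 without passing. The other probe sets of Wnt7a, Fzd10 and Lgr5 showed no such difference. For Wnt7a they had means of 5.69 with progesterone and 5.53 with oil, and of 3.47 in both groups. The other probe set of Fzd10 was at 3.09 with progesterone and 3.02 with oil, and that of Lgr5 at 3.43 and 3.47, all near the TrpnX range. Averaging the probe sets of a gene ended the call of Fzd10 (log2 change -0.49, adjusted p = 0.0502). It made the log2 changes of Wnt7a (-0.65, adjusted p = 0.0154), Lgr5 (-0.86, adjusted p = 0.0391) and Fzd6 (0.53, adjusted p = 0.0301) smaller, and these 3 still passed. All 4 probe sets of Wnt5a had log2 differences between 0.32 and 0.34, and none passed in limma (adjusted p from 0.143 to 0.36).

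**Figure D3:**
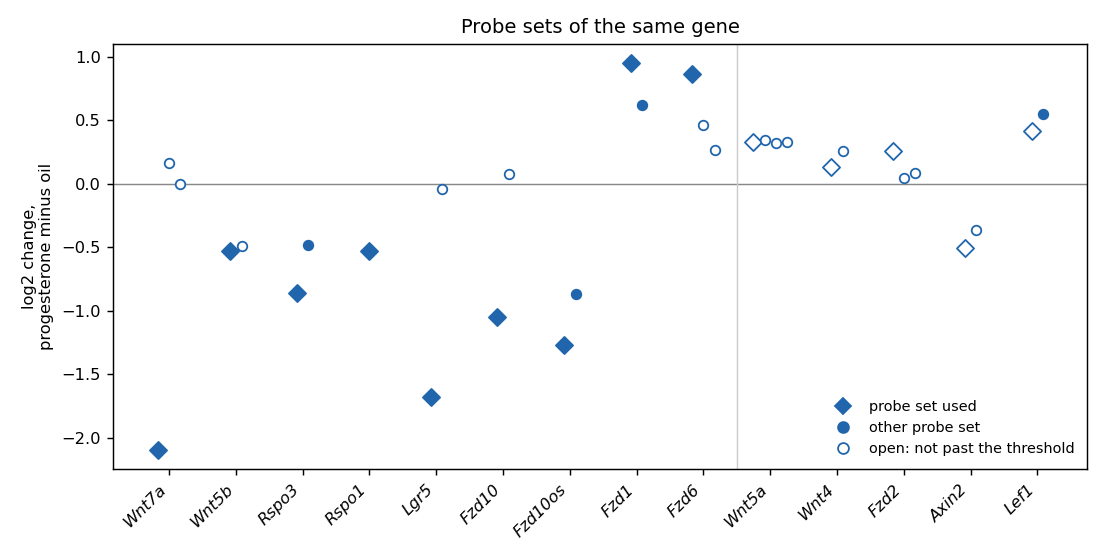
Log2 change (progesterone minus oil) of every probe set of the 9 genes past the threshold (left of the line) and of 5 others (right of it), with diamonds for the probe set used and filled symbols for an adjusted p under 0.05 when every probe set is tested on its own. Rspo3, Fzd10os and Fzd1 have a second filled symbol on the same side, and the other probe sets of Wnt7a, Lgr5 and Fzd10 lie near 0.

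None of the 10 antagonists passed in limma without the replicate block, and 2 of them, Wif1 and Dkk2, had an unadjusted p under 0.05 and passed as lower with the block. Wif1, which binds Wnt ligands outside the cell, was at 4.22, 4.82 and 5.52 with progesterone, against 6.22, 5.75 and 8.41 with oil. All progesterone arrays were below all oil arrays, and oil replicate 3 stood above the others. The log2 change was -1.94 (95% confidence interval -3.54 to -0.34, limma adjusted p = 0.119, and 0.0153 with the replicate block), and -1.13 without oil replicate 3 (adjusted p = 0.12). Oil replicate 3 is the array with the raised liver transcripts, and their part in its Wif1 level was not tested. Dkk2, a Dickkopf that can block or aid the coreceptors, was at 6.26, 7.24 and 7.04 with progesterone and 7.33, 7.49 and 8.04 with oil (log2 change -0.77, adjusted p = 0.138, and 0.0322 with the replicate block). Its change was -0.48 without progesterone replicate 1 (adjusted p = 0.24).

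The remaining antagonists had overlapping arrays. Sfrp2 was at 11.48, 11.10 and 11.22 with progesterone and 11.24, 11.36 and 10.85 with oil, and its log2 difference of 0.12 had a 95% confidence interval of -0.27 to 0.50. Sfrp4 was at 7.87, 9.21 and 9.78 with progesterone and 8.22, 8.76 and 9.16 with oil. The array numbered 1 was the lowest of both groups, and the interval of the difference ran from -0.88 to 1.36. Frzb was at 5.07, 7.05 and 5.84 with progesterone and 5.69, 6.07 and 6.26 with oil, with an SD of 0.998 among the progesterone arrays. Sfrp1, Sfrp5, Dkk1, Dkk3 and Dkk4 had log2 differences between -0.23 and 0.27. The median log2 change of the class was 0.02. Without the replicate block 0 of the 10 antagonists passed in limma, where 11.7% of all genes did.

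None of the 4 target and feedback genes passed in limma without the replicate block, and 2 of them, Axin2 and Lef1, had an unadjusted p under 0.05. Axin2, a feedback inhibitor and a common readout of beta-catenin activity, was at 9.65, 9.08 and 9.03 with progesterone, against 9.82, 9.77 and 9.69 with oil. The groups lay apart, with 2 of the 3 progesterone arrays well below the oil arrays and progesterone replicate 1 close to them. The log2 change was -0.51 (limma adjusted p = 0.109, and 0.0478 with the replicate block). It passed without progesterone replicate 1 (log2 change -0.71, adjusted p = 0.0138) but in none of the other 5 fits without 1 array, in which the change was as small as -0.40 and the adjusted p as high as 0.272. Lef1, a transcription factor that binds beta-catenin, lay the other way, at 8.65, 8.17 and 8.19 with progesterone and 8.02, 8.02 and 7.74 with oil (log2 change 0.41, adjusted p = 0.151, and 0.25 on the log2 scale without progesterone replicate 1). Its second probe set was at 4.48, 4.36 and 4.24 with progesterone and 3.89, 3.93 and 3.61 with oil, and passed as higher when tested on its own (log2 change 0.55, adjusted p = 0.0342). Nkd1, an inhibitor of dishevelled, was at 10.47, 10.08 and 9.64 with progesterone and 10.13, 10.11 and 9.88 with oil, so that the groups overlapped. Nkd2 had means of 9.28 with progesterone and 9.11 with oil (adjusted p = 0.403).

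Arrays numbered 1 and those numbered 3 deviated together in the 2 groups (correlations of 0.523 and 0.636). Those numbered 2 did so only weakly (0.141), below the 0.322 of oil replicate 2 with progesterone replicate 1. With the replicate number as a block 2 members were higher and 11 were lower, where 16.1% of all genes passed in either direction. That share was not split by direction, so it does not show whether falls were more common among the members. The 9 members called without the block all passed with it. The 4 further members were Wif1, Dkk2, Fzd7 and Axin2, all lower with progesterone. In each of these 4 genes every progesterone array was below the oil array of its number. For Wif1, Dkk2 and Axin2 any pairing of the arrays would give this, since their groups did not overlap. The 4 genes were also picked for passing with the block, so this lends the pairing no support. For Wif1 the differences between arrays of a number ran from 4.82 against 5.75 in replicate 2 to 5.52 against 8.41 in replicate 3.

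**Figure D4:**
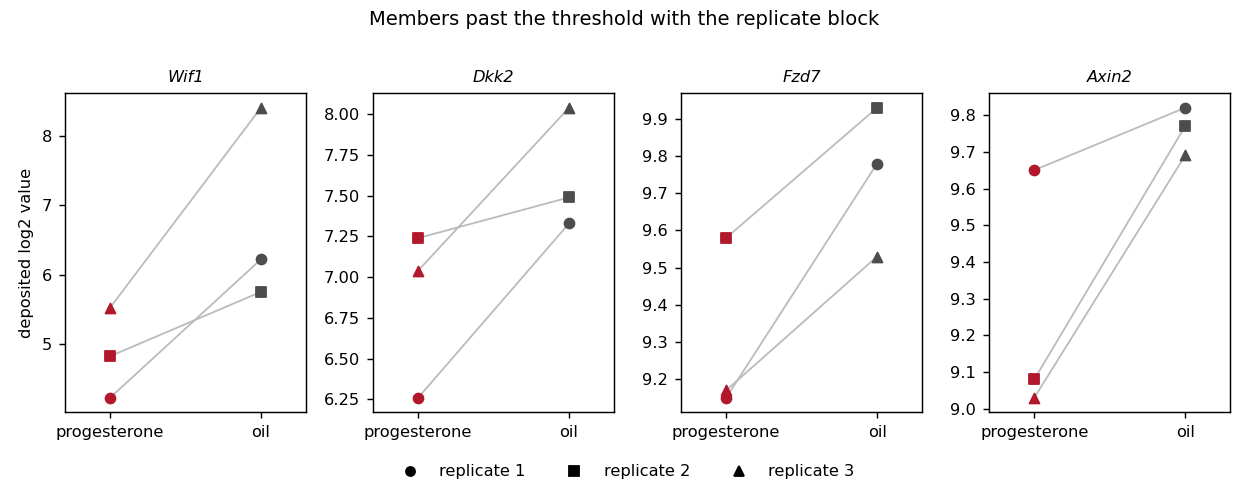
Deposited log2 values of Wif1, Dkk2, Fzd7 and Axin2, with lines that join the progesterone array (left) and the oil array (right) of the same replicate number. All 12 lines rise towards the oil array, which any pairing of the arrays would give for Wif1, Dkk2 and Axin2. The vertical axes differ between panels and do not start at 0.

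In all, 20 of the 53 members had arrays that did not overlap between the groups, 5 higher and 15 lower with progesterone, where 30.4% of all genes did. Of these 20, 11 did not pass: Wnt5a, Lgr4 and Lef1 were above their oil arrays, and Wnt16, Wnt2, Lrp6, Fzd4, Fzd8, Dkk2, Wif1 and Axin2 were below them. Of the 44 members that did not pass, 35 had a log2 difference under 0.3 in size. The median SD of a member was 0.21 among progesterone arrays and 0.144 among oil arrays.

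The other genes of the pathway were taken from a list of 74, of which 73 were measured. Of these 2 were higher, 7 were lower and 64 did not pass in limma, against 5.92% higher and 5.83% lower over all genes, and their median log2 change was -0.11. With the replicate block 6 were higher and 9 were lower, where 16.1% of all genes passed in either direction. The additions were Myc, Bambi, Ccn1 and Tle1 (higher) and Ror1 and Tle2 (lower). At the cell surface, Rnf43, a ubiquitin ligase that removes frizzleds and is held back by R-spondins, was at 6.57, 6.25 and 6.01 with progesterone, against 6.97, 7.32 and 7.11 with oil (1.81-fold lower, adjusted p = 0.0194), a call that ended without progesterone replicate 2 or oil replicate 2. Tnfrsf19, a receptor that is a Wnt target in the mouse intestine, was 1.71-fold lower (adjusted p = 0.00641). Wls, the carrier that brings Wnt ligands to the surface, was 1.31-fold lower (adjusted p = 0.0321), a call that ended in all 6 fits without 1 array.

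Within the cell, none of the 14 genes of dishevelled and the destruction complex passed in limma, 1 had an unadjusted p under 0.05, and their median log2 change was 0.04. Beta-catenin itself (Ctnnb1) was at 13.05, 13.08 and 13.02 with progesterone and 13.15, 13.14 and 13.20 with oil (log2 difference -0.11, limma adjusted p = 0.453). Its coactivator Bcl9 fell 1.54-fold (adjusted p = 0.0151, not past without progesterone replicate 2 or oil replicate 1 or 2), and the delta-catenin Ctnnd2 fell 5.70-fold (adjusted p = 0.00395). Among 13 further target genes Ascl2, a transcription factor of intestinal stem cells in mice, was 1.62-fold lower (adjusted p = 0.0419) and Ccn2, a matricellular protein, 1.66-fold lower (adjusted p = 0.0243). Ccn4, also matricellular, was 1.79-fold higher (adjusted p = 0.00737), and Fst, which binds activin, was 6.95-fold higher (adjusted p = 0.0222). The call of Ascl2 ended in all 6 fits without 1 array. That of Ccn2 ended without progesterone replicate 1 or 3 or oil replicate 1 or 2, and that of Fst without progesterone replicate 2 or 3 or oil replicate 1 or 2. The target genes Myc and Ccn1 were 1.62-fold and 2.49-fold higher without passing (adjusted p = 0.0571 and 0.0518), and passed with the replicate block (0.0148 and 0.0244). None of the 9 genes of planar polarity and none of the 8 secreted modulators outside the family names, such as Sost and Ndp, passed in limma, with 1 of each at an unadjusted p under 0.05.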

How the data were processed

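Gene expression was measured in the uterus of ovariectomized mice on 6 single-colour arrays. The deposited values are on a log2 scale, and the authors used Partek 6.6 and RMA, per the submitters' processing notes. Further settings are not given in the sources used here, and scanner files and detection calls were not used here. Of 45101 probe sets, 64 were controls, 34945 had 1 gene symbol in the platform annotation, 932 had several and 9160 had none here, and the gene identifiers of all 53 members were found in the RefSeq gene table. These were analysed in R 4.3.3 with lmFit and eBayes of limma 3.58.1, two-sided, without a filter or block, and with Benjamini-Hochberg adjustment over 18193 genes at a threshold of 0.05. The number of arrays limits the precision. The procedure was tested on simulated data.

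The members, classes, gene lists and tests were chosen with earlier results of these data known, so none of them is independent support. The genes named were every member, in detail where it passed, where its arrays lay apart or where it was among the 2 members of its class with the highest mean level, and up to 4 passing pathway genes per sublist by size of change. Pathway genes named for the replicate block, and those named without passing, were chosen after their values were seen. Groups came from the sample titles. Deviations from the group means correlated at 0.523, 0.141 and 0.636 between arrays of the same number. The main fit did not pair the arrays, and the replicate number was a block in an alternative fit only. That block was read from the data, as no label says what a number shares. It is weak for number 2, since the best match of oil replicate 2 was progesterone replicate 1 (0.322).

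The alternatives were quantile normalization, median centring, an offset of 32, leaving out the lowest 25% or 50% of genes, averaged probe sets, single probe sets, robust eBayes with a trend, the replicate block, leaving out each array or both arrays numbered 3, a threshold of 0.01 and a change of at least 1.5-fold.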

Additional observations from a re-analysis of the deposited data

How the results depend on the processing

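None of the 9 called members changed direction under any alternative run. At an adjusted p under 0.01, 1 member was higher and 4 were lower, and of the pathway list 1 was higher and 2 were lower. The share of all genes was not counted at this threshold, in the fits without 1 array, or by direction with the block. Counts from these fits therefore say nothing on whether the members differ from all genes. With the replicate block 11 members were lower and 6 pathway genes were higher, and the block ended no call of a member. The count of higher pathway genes was 4 without the lowest 50% of genes and 4 with the mean of probe sets, and that of lower pathway genes was 3 without both arrays numbered 3. Fewer arrays or another set of genes tested are part of these alternatives, and the cause was not tested beyond that. Without 1 array, between 1 and 2 members were higher and between 4 and 7 lower, and between 1 and 3 pathway genes were higher and between 2 and 8 lower. Median log2 changes then ranged from -0.07 to 0.03 for ligands, -0.11 to -0.05 for receptors, -0.09 to 0.07 for antagonists and -0.05 to 0.21 for targets. Those of ligands, antagonists and targets took either sign, within the spread between arrays. Wnt7a, Rspo3, Fzd1, Fzd10 and Fzd10os, 5 of the 9 called members, passed in all 6 such fits. Without both arrays numbered 3 the calls of Rspo1, Wnt5b and Lgr5 ended (adjusted p = 0.101, 0.122 and 0.102), and Wif1 passed as lower (0.0376). Signal near background limits what can be seen for the 15 members below 5.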
